A study of Mus musculus with 6 samples.

Results

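The alpha subunits of heterotrimeric G proteins were compared between BCR-ABL1-driven mouse leukaemia without and with activation-induced cytidine deaminase (AID). The annotation of the arrays gave 36 of the 45037 probe sets tested exactly 1 of 10 alpha subunit symbols, and probe sets of a gene are given separately. The family was taken up because Gnai1 was already known to have one of the largest decreases in these data. The values of Gnai1 are therefore a description without a test. The other members were also listed with earlier results of these data known. They are not the whole family: Gnao1, Gnal, Gnat1, Gnat2 and Gna14 are given apart, with the pathway lists. The study asked how AID-expressing and AID-deficient leukaemia differ in gene expression. The first group is AID-/- leukaemia cells and the second AID+/+ leukaemia cells, with 3 arrays each, both from strain Balb/c. The study's title gives BCR-ABL1 as the driver of the disease, which both groups share. The titles number the arrays as biological replicates, but how the leukaemias were made, the age of the mice and whether each array is a separate animal are not given in the sources used here. Test results therefore measure the spread between these samples, which may be technical.

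A G protein relays the signal of a seven-transmembrane receptor. The receptor makes the alpha subunit exchange GDP for GTP, the alpha subunit and the beta-gamma pair then act on separate targets, and hydrolysis of GTP ends the signal. The alpha subunits fall into classes: Gi inhibits adenylyl cyclase, Gs activates it, Gq activates phospholipase C beta, and G12 and G13 activate exchange factors for small GTPases of the cytoskeleton. In lymphocytes, Gi carries most signalling of chemokine receptors, and G13 restrains migration and growth of germinal centre B cells.

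Values are log2 expression values, 1 per probe set and array, so a difference of 1 is a 2-fold change. Single arrays had medians of 4.85 to 4.90, and the median probe set averaged 4.89. Across probe sets, Pearson's r was 0.991 to 0.994 for pairs of AID-/- arrays, 0.995 to 0.996 for pairs of AID+/+ arrays and 0.972 to 0.977 for pairs across the groups; probe sets are no independent replicates. Xist, the RNA that silences an X chromosome, averaged 5.30 ± 0.86 over the AID-/- arrays and 12.01 ± 0.14 over the AID+/+ arrays (SD, n = 3 each). Kdm5d, a Y-linked gene, averaged 7.66 ± 0.06 over the AID-/- arrays and 2.58 ± 0.14 over the AID+/+ arrays (SD, n = 3 each). Sex-linked signal thus separated all arrays by group, so that genotype and sex cannot be told apart here. B-lineage markers were high on all arrays: the mean over 7 B-lineage genes was 11.53 to 11.70 on the AID-/- arrays and 11.19 to 11.39 on the AID+/+ arrays. The means over marker lists of T and NK, myeloid, erythroid, platelet and stromal cells lay between 4.09 and 5.04 on every array. The B-lineage list held 1 gene that passed, Blnk, an adaptor of the pre-B cell receptor, at 12.33, 12.68 and 12.61 on the AID-/- arrays and 10.42, 10.60 and 10.33 on the AID+/+ arrays (difference 2.09, limma adjusted p = 2.61e-05). Of the 28 markers of other cell types 1 passed, Lyz2, a lysozyme of myeloid cells, which was higher in AID-/- leukaemia by 0.76 (SE 0.21, limma adjusted p = 0.0436). The part of either gene in the results below was not tested.

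Gnai1 was low on every AID-/- array at all 3 of its probe sets, and the probe sets of the other alpha subunits differed by -0.63 to 0.49 log2 units. Of the 33 probe sets other than those of Gnai1, 5 were lower in AID-/- leukaemia, 0 were higher and 28 did not pass (limma, adjusted p under 0.05 over all probe sets). Over all probe sets, 14.6% passed, with 7.39% lower and 7.24% higher, each as a share of all. The 5 were 3 of the 5 of Gnas, 1 of the 2 of Gna11 and 1 of the 7 of Gna13. At an unadjusted p under 0.05, 10 of the 33 were lower and 3 were higher, where 15.1% and 12.3% of all probe sets were. An ordinary linear model called 1 of the 33 lower and 0 higher, where it called 2.56% and 2.68% of all probe sets. The median difference of the 33 was -0.07, beside -0.04 over all probe sets. The AID-/- arrays lay wholly below the AID+/+ arrays at 10 of the 33 and wholly above them at 3, where 18.7% and 14.2% of all probe sets did. In total 28 of the 36 averaged above the median probe set. None of the 8 dimmer ones passed, with differences between -0.23 and 0.26. At an unadjusted p under 0.05, 1 of them was lower and 1 was higher.

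**Figure D1:**
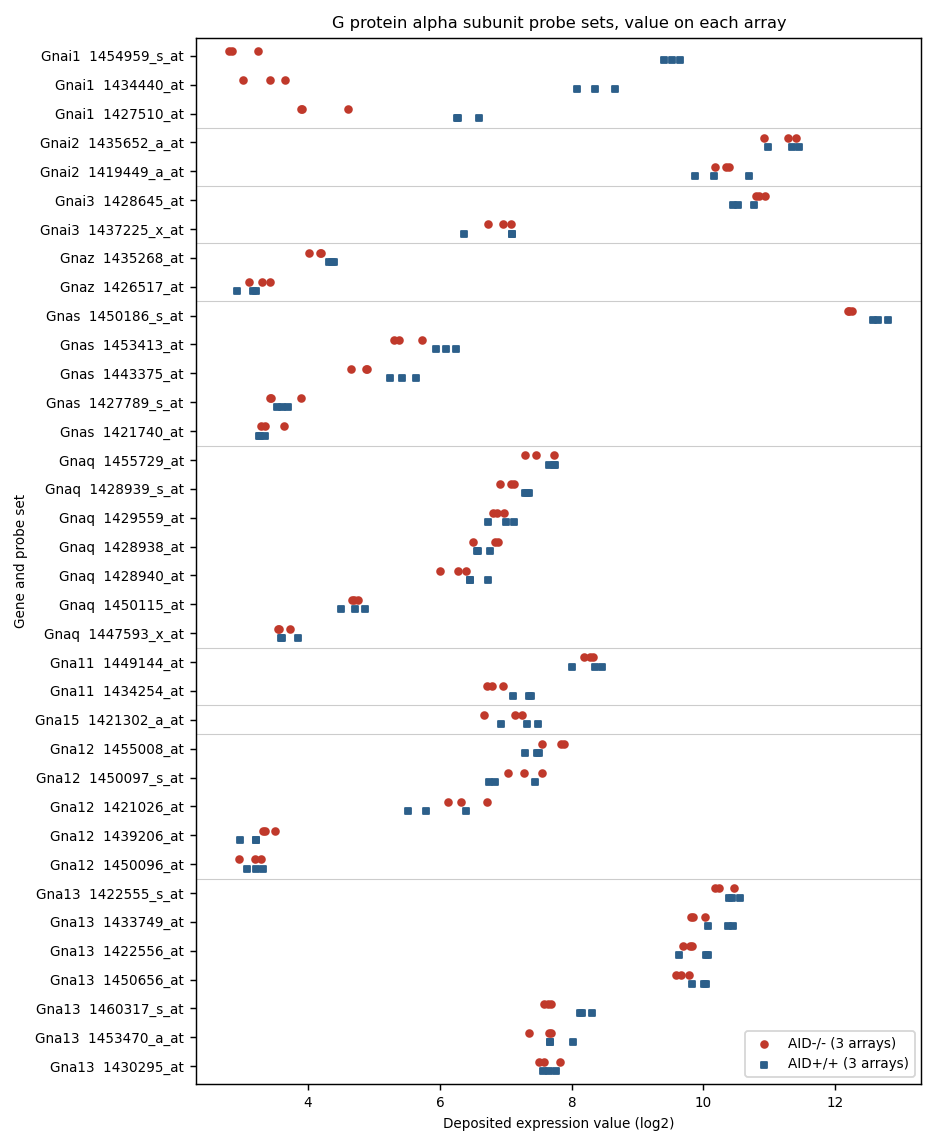
Deposited log2 value of each of the 36 alpha subunit probe sets (rows, grouped by gene) on each array; red circles are the 3 AID-/- arrays and blue squares the 3 AID+/+ arrays. The groups stand far apart at the 3 probe sets of Gnai1 and lie within 1 log2 unit of each other in the means of all other rows.

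**Figure D2:**
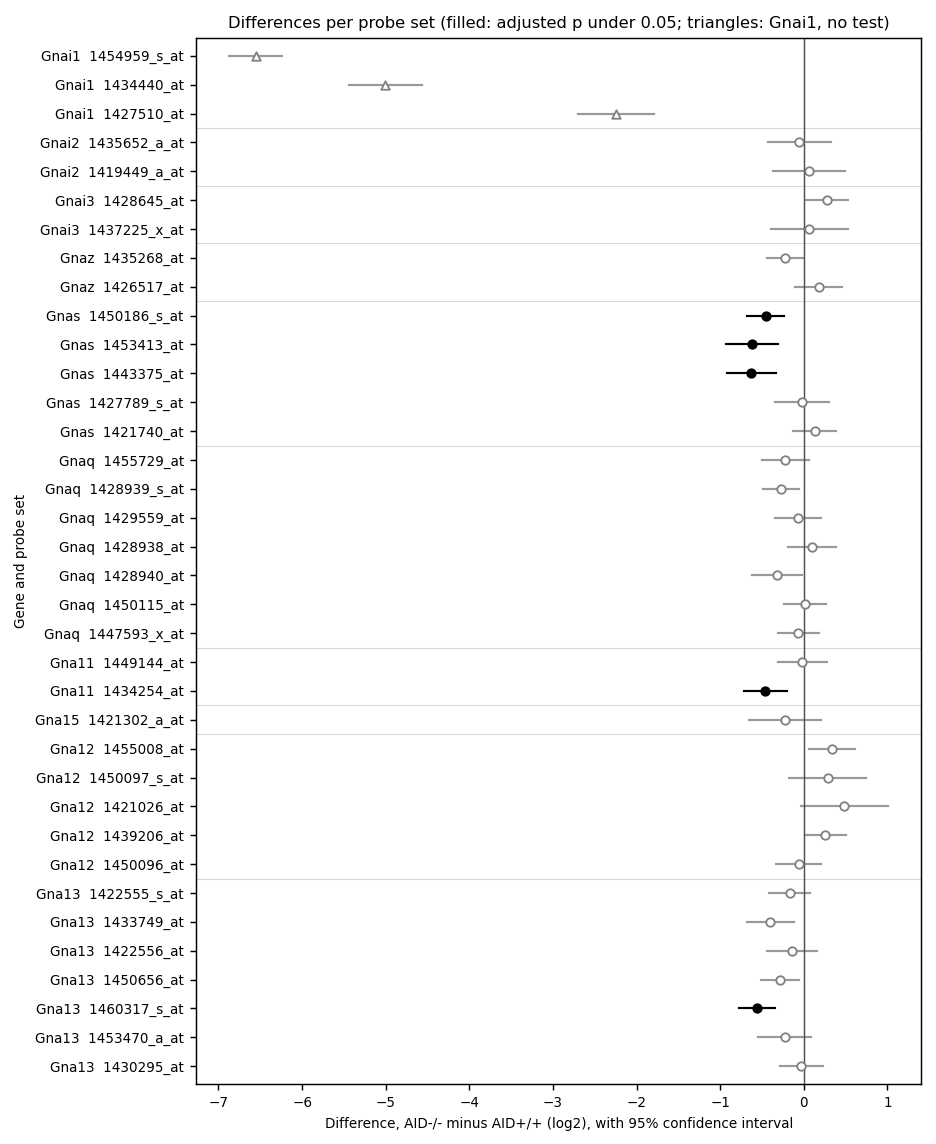
Log2 difference of each probe set (AID-/- minus AID+/+) and its 95% confidence interval, from the moderated fit; filled points have an adjusted p under 0.05, and open triangles mark Gnai1, which was not tested. The 3 probe sets of Gnai1 lie at -6.56, -5.00 and -2.24, and the others between -0.63 and 0.49.

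Gnai1 encodes a Gi subunit, which lowers cAMP when a receptor is active. RefSeq promoter windows (GRCm38.p6) were matched for 8 of the 10 genes. The 250 bases before the start of Gnai1, the gene with the large difference, are printed with those of Gnai3, a close relative at which no probe set passed. Capitals mark GGGCGG, the GC box that SP-family factors bind, on either strand. The Gnai1 window lies at chr5:18360414-18360663 and that of Gnai3 at chr3:108146153-108146402, both read on the minus strand.
Gnai1: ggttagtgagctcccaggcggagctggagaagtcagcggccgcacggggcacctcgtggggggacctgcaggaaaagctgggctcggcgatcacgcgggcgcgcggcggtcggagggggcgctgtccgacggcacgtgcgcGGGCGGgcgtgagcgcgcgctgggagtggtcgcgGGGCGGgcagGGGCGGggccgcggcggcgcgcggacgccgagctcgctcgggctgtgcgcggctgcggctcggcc
Gnai3: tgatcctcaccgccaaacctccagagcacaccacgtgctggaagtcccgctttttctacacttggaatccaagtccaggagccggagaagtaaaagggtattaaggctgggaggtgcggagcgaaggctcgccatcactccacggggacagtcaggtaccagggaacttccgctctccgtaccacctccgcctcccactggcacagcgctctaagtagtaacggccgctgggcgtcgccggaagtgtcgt
The Gnai1 window holds 43 CpG dinucleotides and 3 GC boxes, and the Gnai3 window holds 18 and 0. Among other genes at which no probe set passed, the Gnaq window holds 37 CpG and 4 GC boxes, the Gna12 window 20 and 4, and the Gna15 window 4 and 0. The median of all 32851 windows is 6 CpG, and 32.7% of them hold a GC box. The sequence TGACGTCA, the site of cAMP response element binding factors, is in none of the 11 windows of the 8 genes and in 1.5% of all windows. These are letters in a reference window, and the arrays measured no binding or methylation there.

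Gnai1 was near the lower end of the scale in AID-/- leukaemia and well expressed in AID+/+ leukaemia. At its brightest probe set, 1454959_s_at, the values were 2.81, 2.84 and 3.25 on the AID-/- arrays, against 9.40, 9.52 and 9.64 on the AID+/+ arrays. The means were 2.96 ± 0.25 over the AID-/- arrays and 9.52 ± 0.12 over the AID+/+ arrays (SD, n = 3 each), a difference of -6.56 (SE 0.14). The gap between the groups was many times the spread within either of them. In bulk samples, fewer cells of a type and less RNA per cell cannot be told apart. Probe set 1434440_at gave 3.01, 3.42 and 3.65 on the AID-/- arrays and 8.08, 8.35 and 8.66 on the AID+/+ arrays, a difference of -5.00 (SE 0.19). Probe set 1427510_at gave 4.60, 3.91 and 3.90 on the AID-/- arrays and 6.28, 6.27 and 6.60 on the AID+/+ arrays, a difference of -2.24 (SE 0.20). The groups did not overlap at any of the 3, but the size differed between probe sets by more than their errors. Values near the lower end hold little order and no detection calls were used, so the sizes are approximate. With 1 array left out, the differences stayed between -6.70 and -6.48, -5.15 and -4.83, and -2.48 and -2.13.

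The other Gi genes did not pass at any of their 6 probe sets. Gnai2, the chief Gi subunit of lymphocytes, gave 10.92, 11.41 and 11.28 on the AID-/- arrays and 11.45, 10.98 and 11.34 on the AID+/+ arrays at 1435652_a_at. The groups overlapped, with a difference of -0.05 (95% interval -0.43 to 0.32). Its other probe set, 1419449_a_at, differed by 0.06 (95% interval -0.37 to 0.50). Gnai3, which shares receptors and targets with Gnai2, gave 10.81, 10.85 and 10.93 on the AID-/- arrays and 10.45, 10.77 and 10.52 on the AID+/+ arrays at 1428645_at. The AID-/- arrays lay just above the others, by 0.28 (SE 0.11, adjusted p = 0.135). The dimmer Gnai3 probe set, 1437225_x_at, differed by 0.07 (SE 0.20), and its groups overlapped. Gnaz, a Gi-class subunit insensitive to pertussis toxin and known mainly from neurons and platelets, averaged below the median probe set in both groups. At 1435268_at Gnaz gave 4.01, 4.20 and 4.17 on the AID-/- arrays and 4.36, 4.31 and 4.39 on the AID+/+ arrays, a difference of -0.23 (SE 0.09, adjusted p = 0.155). At 1426517_at Gnaz differed by 0.18 (SE 0.12).

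**Figure D3:**
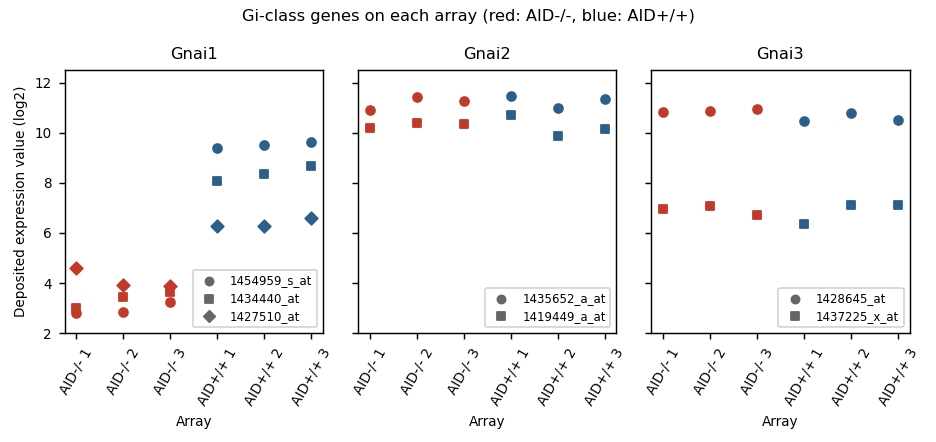
Deposited log2 values of Gnai1, Gnai2 and Gnai3 on each array, with AID-/- in red on the left of each panel, AID+/+ in blue on the right and 1 symbol per probe set. The 3 Gnai1 probe sets lie at 2.81 to 4.60 on the AID-/- arrays and at 6.27 to 9.64 on the AID+/+ arrays, while the groups lie at similar heights for Gnai2 and Gnai3.

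Gnas, which encodes the stimulatory subunit Gs, was lower in AID-/- leukaemia at 3 of its 5 probe sets. The Gnas locus is imprinted and makes several transcripts from alternative first exons, among them XLas and Nesp55, and which of them each probe set reads is not given in the annotation used here. Its brightest probe set, 1450186_s_at, gave 12.20, 12.22 and 12.25 on the AID-/- arrays, against 12.81, 12.57 and 12.65 on the AID+/+ arrays. All AID-/- arrays were below all AID+/+ arrays, by 0.45 or 1.37-fold (difference -0.45, SE 0.10, limma adjusted p = 0.0148). Probe set 1453413_at gave 5.38, 5.30 and 5.73 on the AID-/- arrays and 6.25, 5.93 and 6.09 on the AID+/+ arrays, a difference of -0.62 (SE 0.14, adjusted p = 0.0182). Probe set 1443375_at gave 4.90, 4.65 and 4.88 on the AID-/- arrays and 5.24, 5.64 and 5.42 on the AID+/+ arrays, a difference of -0.63 (SE 0.13, adjusted p = 0.0131). The groups did not overlap at either. The remaining probe sets lay near the lower end of the scale and overlapped, with differences of -0.02 (SE 0.14) at 1427789_s_at and 0.13 (SE 0.11) at 1421740_at. The call at 1453413_at did not hold when replicate 2 of AID-/- (-0.54, adjusted p = 0.0534) or replicate 1 (-0.54, adjusted p = 0.0674) or 3 (-0.62, adjusted p = 0.0635) of AID+/+ was left out, in a range of 0.0106 to 0.119 over its 13 alternatives. All 3 Gnas calls were lost without variance moderation, with adjusted p of 0.0550, 0.119 and 0.0971 in the order above. With its 5 probe sets averaged, Gnas passed (-0.32, limma adjusted p = 0.027).

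Among the Gq-class genes, 1 of 10 probe sets was lower and 9 did not pass. Gna11, an activator of phospholipase C beta that is widely expressed, was lower at 1434254_at, with 6.79, 6.72 and 6.97 on the AID-/- arrays and 7.39, 7.11 and 7.35 on the AID+/+ arrays. The groups did not overlap, and the difference was -0.46 (SE 0.11, limma adjusted p = 0.0302). Its brighter probe set, 1449144_at, disagreed: it averaged 8.26 ± 0.06 over the AID-/- arrays and 8.28 ± 0.24 over the AID+/+ arrays (SD, n = 3 each), with overlapping groups and a difference of -0.02 (95% interval -0.31 to 0.28). The call at 1434254_at was lost without AID-/- replicate 1 (-0.44, adjusted p = 0.0700) or 2 (-0.41, adjusted p = 0.0896), without AID+/+ replicate 1 (-0.41, adjusted p = 0.0982) or 3 (-0.42, adjusted p = 0.109), and without moderation (adjusted p = 0.116). Its adjusted p was 0.0224 to 0.116 over 13 alternatives. With both probe sets averaged, Gna11 did not pass (-0.24, limma adjusted p = 0.194).

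Gnaq, the closest relative of Gna11, did not pass at any of 7 probe sets, with differences between -0.32 and 0.10. At an unadjusted p under 0.05, 2 were lower and 0 were higher. At 1428939_s_at Gnaq gave 7.08, 6.91 and 7.13 on the AID-/- arrays and 7.32, 7.35 and 7.29 on the AID+/+ arrays. These groups did not overlap (difference -0.28, SE 0.09, adjusted p = 0.0917), nor did those at 1428940_at (difference -0.32, SE 0.13, adjusted p = 0.152), whereas the other 5 overlapped. These differed by -0.22 at 1455729_at, -0.07 at 1429559_at, 0.10 at 1428938_at, 0.01 at 1450115_at and -0.07 at 1447593_x_at. Gna15, a Gq-class subunit of haematopoietic cells that couples to many receptors, had a single probe set, 1421302_a_at. Gna15 gave 6.67, 7.25 and 7.15 on the AID-/- arrays and 7.49, 6.93 and 7.32 on the AID+/+ arrays, and the groups overlapped (difference -0.23, 95% interval -0.66 to 0.20). RefSeq places Gna15 and Gna11 next to each other on chromosome 10.

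Of the 12 probe sets of the G12 class 1 was lower, at Gna13, and 11 did not pass. Gna13 differed by a negative amount at all 7 probe sets, between -0.56 and -0.03, and passed at 1 of them. Over all probe sets 58% differed by a negative amount, and these 7 read 1 gene on the same arrays. With the 7 averaged, Gna13 did not pass (-0.26, limma adjusted p = 0.0864). At 1460317_s_at Gna13 gave 7.68, 7.58 and 7.65 on the AID-/- arrays, against 8.31, 8.12 and 8.16 on the AID+/+ arrays. The groups did not overlap, with a difference of -0.56 (SE 0.09, limma adjusted p = 0.00522), and the adjusted p was 0.00386 to 0.0337 over 13 alternatives. The bright probe set 1433749_at gave 10.03, 9.82 and 9.84 on the AID-/- arrays and 10.44, 10.07 and 10.37 on the AID+/+ arrays. Its groups did not overlap, but the difference of -0.40 (SE 0.12) did not pass (adjusted p = 0.0640). It passed without AID+/+ replicate 2 (-0.51, adjusted p = 0.0319), with an intensity trend, with array weights and with dim probe sets left out, in a range of 0.0319 to 0.189. The brightest, 1422555_s_at, averaged 10.30 ± 0.15 over the AID-/- arrays and 10.47 ± 0.09 over the AID+/+ arrays (SD, n = 3 each), and its groups overlapped (difference -0.17, SE 0.11). Probe set 1450656_at averaged 9.67 ± 0.10 over the AID-/- arrays and 9.96 ± 0.11 over the AID+/+ arrays (SD, n = 3 each), without overlap but without passing (difference -0.28, SE 0.10, adjusted p = 0.107). The groups overlapped at 1453470_a_at, 1422556_at and 1430295_at, which differed by -0.23, -0.14 and -0.03.

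Gna12, which like Gna13 acts on exchange factors for small GTPases, differed by a positive amount at 4 of 5 probe sets, with values between -0.06 and 0.49, and none passed (2 higher and 0 lower at an unadjusted p under 0.05). At its brightest probe set, 1455008_at, Gna12 gave 7.56, 7.89 and 7.84 on the AID-/- arrays and 7.47, 7.29 and 7.51 on the AID+/+ arrays. The AID-/- arrays were all above the AID+/+ arrays by a narrow margin, and the difference was 0.34 (SE 0.12, adjusted p = 0.101). It passed only without AID-/- replicate 1 (0.44, adjusted p = 0.0362), in a range of 0.0362 to 0.262 over 13 alternatives. The largest difference, 0.49 (SE 0.23) at 1421026_at, came with overlapping groups, as did 0.28 (SE 0.20) at 1450097_s_at and -0.06 (SE 0.12) at 1450096_at. With its 5 probe sets averaged, Gna12 did not pass (0.26, limma adjusted p = 0.214). The dim probe set 1439206_at gave 3.50, 3.35 and 3.32 on the AID-/- arrays and 3.21, 2.97 and 3.22 on the AID+/+ arrays, without overlap (difference 0.26, SE 0.11, adjusted p = 0.157).

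The surrounding pathway was read from 7 lists that were chosen with earlier results of these data known, at the brightest probe set of each gene. Of 74 measured genes, limma called 11 higher and 9 lower in AID-/- leukaemia and 54 did not pass, where 10.1% of all 18193 genes were higher and 8.42% lower. The 8 further genes listed were not analysed here. The median difference was -0.03, as over all genes. The counts rested on single AID+/+ arrays: 7 were higher and 2 lower without replicate 3, 2 were lower without replicate 2, and 5 were lower without replicate 1. Of the 20 called genes, 8 kept their call in each of 6 fits that left out 1 array: Gpr18, Plcb4, Trio, Cnr2, Rasgrp2, Ptger4, Prkaca and Rock1. For 5 of the 8, the call was lost only without variance moderation, namely Trio (adjusted p = 0.0763), Cnr2 (0.0600), Rasgrp2 (0.0878), Ptger4 (0.0724) and Prkaca (0.0631). Without moderation 4 stayed higher, Gpr18, Plcb4, Pde4a and Arhgef12, and 2 stayed lower, Rock1 and Creb1.

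**Figure D4:**
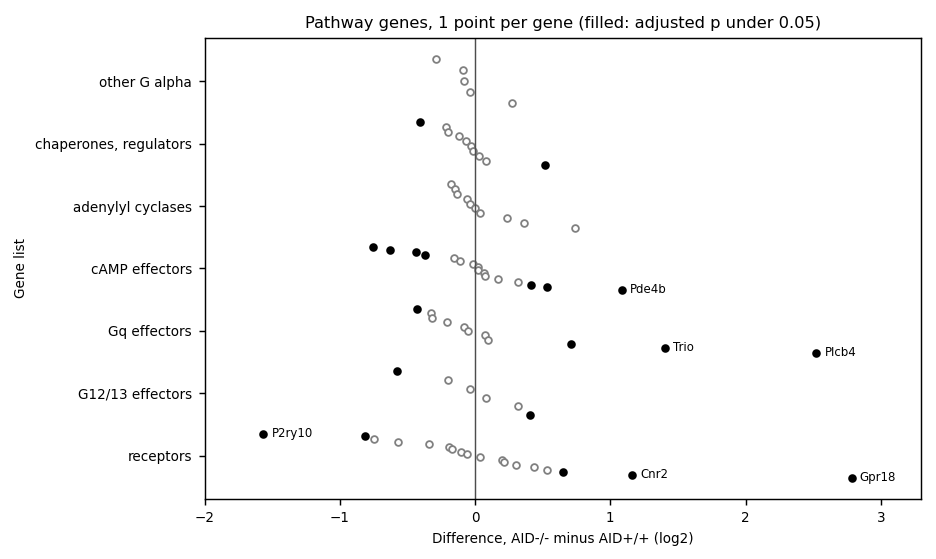
Log2 difference of each pathway gene (AID-/- minus AID+/+), 1 point per gene and 1 row per list; filled points have an adjusted p under 0.05, and called genes past 1 log2 unit are named. Adenylyl cyclases and the remaining alpha subunits hold no filled point, and Gpr18 and Plcb4 lie farthest to the right at 2.78 and 2.52.

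At their brightest probe sets, genes that make cAMP did not pass, and called genes that respond to it went both ways. Among 10 adenylyl cyclases, the enzymes that Gs activates and Gi inhibits, limma called 0. Over all genes it called 10.1% higher and 8.42% lower. At an unadjusted p under 0.05, 2 cyclases were higher and 0 were lower. The largest difference in this list was that of Adcy9, singled out after its values were seen. Adcy9 averaged below the median probe set, and its groups did not overlap (difference 0.74, SE 0.24, adjusted p = 0.0696). Adcy7, the main cyclase of haematopoietic cells, gave 9.33, 9.69 and 9.77 on the AID-/- arrays and 9.22, 9.25 and 9.22 on the AID+/+ arrays (difference 0.36, SE 0.12, adjusted p = 0.0823). At the level of probe sets, however, Adcy7 was higher at 1 of 3, with differences of 0.27 to 0.61, and Adcy3, another cyclase, at 2 of 4, with differences of 0.24 to 1.21. Among 16 cAMP kinase subunits, phosphodiesterases and related genes, 9 did not pass, 3 were higher and 4 were lower. Of the 9, Prkar2b was higher at 1 of its 3 probe sets, with differences of 0.17 to 0.71. It was singled out after its values were seen. Prkaca, a catalytic subunit of protein kinase A, was higher by 0.53 (SE 0.11, adjusted p = 0.0114). The phosphodiesterase gene Pde4a was higher by 0.41 (SE 0.08, adjusted p = 0.0117) and Pde7a fell by 0.43 (SE 0.09, adjusted p = 0.0143), or by 0.75 with its probe sets averaged.

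The remaining called cAMP genes were named after their values were seen, and each call depended on single arrays. Pde4b, a phosphodiesterase, was higher by 1.09 (SE 0.26). Prkar2a, a regulatory kinase subunit, fell by 0.63 (SE 0.16), and the transcription factor genes Creb1 and Crem fell by 0.37 (SE 0.09) and 0.76 (SE 0.21). With 1 array left out, adjusted p reached 0.0875 for Pde4b, 0.111 for Prkar2a, 0.0710 for Creb1 and 0.134 for Crem. The call was lost without any single AID+/+ array for Pde4b, Prkar2a and Crem, also without AID-/- replicate 3 for Pde4b and Crem, and without AID-/- replicate 1 for Crem. For Creb1 it was lost when replicate 2 of either group or replicate 3 of AID+/+ was left out, and with the replicate number as a block. The Creb1 probe sets disagreed, from -0.37 to 0.53, and their mean differed by 0.06 and did not pass. With probe sets averaged, Crem (-0.27, adjusted p = 0.202) and Prkar2a (-0.37, adjusted p = 0.0502) did not pass either, and Pde4b was higher by 0.58 (adjusted p = 0.0379). The call on Pde4a was lost without AID+/+ replicate 3 (adjusted p = 0.0566), and that on Pde7a when replicate 3 of AID-/- or replicate 2 of AID+/+ was left out (adjusted p of 0.0529 at most).

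Among Gq targets and related genes, the called gene with the largest difference was Plcb4. Plcb4, a phospholipase C beta, gave 6.35, 6.79 and 6.47 on the AID-/- arrays, against 4.21, 3.88 and 3.96 on the AID+/+ arrays. The groups lay far apart, by 2.52 or 5.75-fold (SE 0.14, adjusted p = 2.1e-05), and 3 of its 5 probe sets were higher, with differences of 0.22 to 2.52 and a mean over probe sets of 1.05. Trio, a Gq-activated exchange factor for small GTPases, was higher by 1.41 (SE 0.24, adjusted p = 0.00532), at 2 of its 6 probe sets. Their differences ran between -0.07 and 1.41, and with the probe sets averaged Trio was higher by 0.36 (adjusted p = 0.0403). Rasgrp2, a calcium-responsive exchange factor for Rap1, was higher by 0.71 (SE 0.14, adjusted p = 0.0114), at each of its 4 probe sets. In this list of 11 genes 7 did not pass, 3 were higher and 1 was lower, where 10.1% of all genes were higher and 8.42% lower. The lower one, named after its values were seen, was the kinase gene Prkcd, which fell by 0.43 (SE 0.11). Its call was lost without any single AID-/- array, when replicate 1 or 3 of AID+/+ was left out (adjusted p up to 0.0764) and with the replicate number as a block.

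Of 6 genes downstream of G12 and G13, Arhgef12, an exchange factor that G12 and G13 activate, was higher by 0.40 (SE 0.09, adjusted p = 0.0163), and Rock1, a kinase of the actin cytoskeleton, fell by 0.58 (SE 0.10, adjusted p = 0.00630). Rock1 gave 10.81, 11.00 and 11.09 on the AID-/- arrays and 11.45, 11.60 and 11.59 on the AID+/+ arrays, without overlap. The probe sets of Arhgef12 disagreed, from -0.16 to 1.14, and its call did not hold when replicate 2 of AID-/- or replicate 1 or 3 of AID+/+ was left out, where adjusted p reached 0.0618. Among 10 chaperones and regulators, Ric8a, the chaperone and exchange factor of Gi, Gq and G13 subunits, was higher by 0.52 (SE 0.12, adjusted p = 0.0240). Ccdc88a, which encodes the Gi-binding protein girdin, fell by 0.41 (SE 0.10, adjusted p = 0.0213), and the other 8 did not pass at their brightest probe sets. Beside the counts of both lists, 10.1% of all genes were higher and 8.42% lower. At the level of probe sets, however, Ccdc88c was lower at 2 of 4, with differences of -0.79 to 0.08. Likewise Rhoa, of the G12 and G13 list, was lower at 1 of 3, with differences of -0.58 to 0.08. Both genes were singled out after their values were seen. The calls on Ric8a and Ccdc88a were lost when replicate 2 of AID-/- or replicate 3 of AID+/+ was left out. That on Ric8a also went when replicate 3 of AID-/- or replicate 1 of AID+/+ was left out, with adjusted p up to 0.0828. That on Ccdc88a also went when replicate 1 of AID-/- or replicate 2 of AID+/+ was left out, with adjusted p up to 0.0767, and with the replicate number as a block. With probe sets averaged, neither passed, at 0.30 for Ric8a (adjusted p = 0.0602) and -0.21 for Ccdc88a (adjusted p = 0.133), nor did they without variance moderation (adjusted p = 0.109 and 0.0646).

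Of 18 measured receptors outside the chemokine and sphingosine phosphate families, 13 did not pass, 3 were higher and 2 were lower. Over all genes, 10.1% were higher and 8.42% lower. Gpr18, a lymphocyte receptor reported to couple to Gi, gave 8.92, 10.27 and 9.52 on the AID-/- arrays, against 6.60, 6.83 and 6.92 on the AID+/+ arrays. All AID-/- arrays were higher, by 2.78 or 6.89-fold (SE 0.30, adjusted p = 0.000692). Cnr2, the Gi-coupled cannabinoid receptor of B cells, was higher by 1.16 (SE 0.18, adjusted p = 0.00351), and Ptger4, a Gs-coupled prostaglandin E2 receptor, by 0.65 (SE 0.13, adjusted p = 0.00967). The lower receptors, named after their values were seen, were P2ry10, which fell by 1.56 (SE 0.38), and Ptger2, a Gs-coupled relative of Ptger4, which fell by 0.81 (SE 0.18). The call on P2ry10 did not hold in the fits that left out an AID+/+ array, with adjusted p up to 0.0970, and that on Ptger2 when replicate 2 or 3 of AID+/+ was left out (adjusted p up to 0.0654). Of the 5 other alpha subunit genes measured, Gnao1, Gnal, Gnat1, Gnat2 and Gna14, limma called 0, with differences between -0.29 and 0.27. At an unadjusted p under 0.05, 1 was lower and 0 were higher.

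The 5 genes whose profile over the 6 arrays was closest to that of Gnai1 were Hnrnpll, Xist, Slc15a2, Klhdc1 and S100a4. Likeness was the root mean square difference between profiles centred on their own mean, and it was 0.36, 0.65, 0.98, 1.00 and 1.09 log2 units in that order. In this 2-group design such a measure mostly picks genes with a decrease of similar size: theirs were -6.03, -6.71, -4.67, -4.60 and -4.61 at their brightest probe sets. The 3 probe sets of Slc15a2 disagreed, from -4.67 to 0.02.

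Among the 5 nearest measured protein-coding genes on each side of Gnai1 on chromosome 5, 2 passed, and both were higher. The genes were taken in RefSeq order, after the values of Gnai1 were known. Over all genes, limma called 10.1% higher and 8.42% lower, so a list this short says little about lower genes. Ptpn12, a phosphatase gene, was higher by 0.71 (SE 0.19, limma adjusted p = 0.0368) and Gsap by 0.52 (SE 0.13, adjusted p = 0.0270). Cd36, a fatty acid transporter and scavenger receptor, was the nearest on one side. Its values were 4.55, 4.25 and 8.60 on the AID-/- arrays, against 8.25, 8.44 and 8.69 on the AID+/+ arrays. AID-/- replicates 1 and 2 were low and replicate 3 was at the level of the AID+/+ arrays, so the groups overlapped and the difference of -2.66 (SE 1.01) did not pass (adjusted p = 0.115). Phtf2, the nearest on the other side, differed by 0.00 (SE 0.12).

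**Figure D5:**
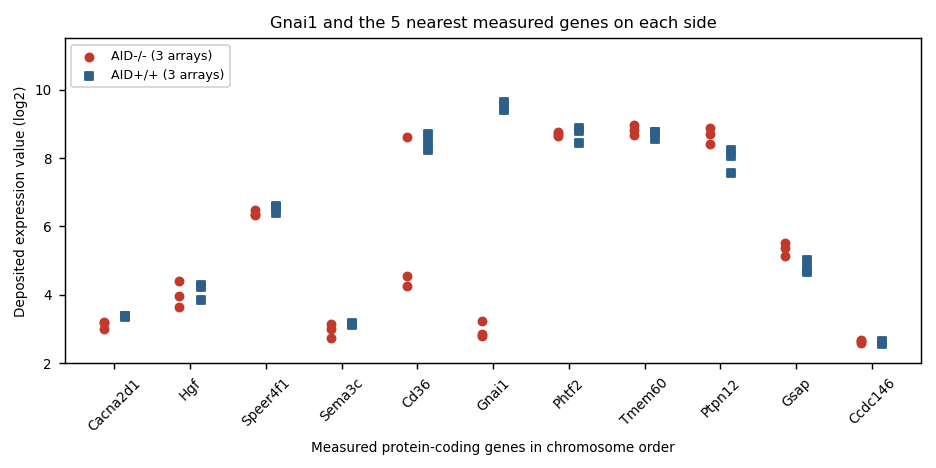
Deposited log2 values of Gnai1 and the 5 nearest measured protein-coding genes on each side, in chromosome order; red circles are the 3 AID-/- arrays and blue squares the 3 AID+/+ arrays. Only at Gnai1 do all AID-/- arrays lie more than 1 log2 unit below the AID+/+ arrays, while at Cd36 replicates 1 and 2 do and replicate 3 does not.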

How the data were processed

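The authors deposited 1 log2 expression value per probe set and array, with RMA and Partek named in the submitters' processing notes, without versions. RMA subtracts background, makes arrays comparable and combines the probes of a probe set. Per the labels' protocols, biotinylated cRNA was made from total RNA of leukaemia cells. Scanner files and detection calls were not used, and the number of arrays limits the precision.

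Of 45101 probe sets 64 controls were left out. Platform annotation, updated by Entrez identifier, gave 34945 probe sets a single symbol; a gene was read at its probe set with the highest mean (18193 genes). Differences, AID-/- minus AID+/+, came from limma 3.58.1 under R 4.3.3 (lmFit, eBayes, group only, no filter), two-sided. Benjamini-Hochberg adjustment, at 0.05, ran over all probe sets, or over all genes for the pathway lists, neighbours and averages of probe sets. Intervals are moderated 95% intervals. The fit was tested on simulated independent values, with changes larger than those of the called members other than Gnai1. How often it finds changes of their size was not tested. Members and lists were chosen with earlier results of these data known. Every member probe set is named; each pathway list names the up to 3 called genes with the smallest p, and others are marked as named after their values were seen. Alternatives left out each array in turn or dim probe sets, dropped variance moderation, averaged probe sets, or used quantile normalization, median centring, array weights, an intensity trend or the replicate block.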

Additional observations from a re-analysis of the deposited data

How the results depend on the processing

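All 460 recomputed differences of member probe sets stayed within the residual SD of their main value, and no called one changed sign. For most of them this was fixed in advance. Leaving out 1 of 3 arrays cannot move a difference by that much. An intensity trend, no moderation, the replicate block and leaving out dim probe sets do not change a difference. Only quantile normalization, median centring and array weights could have moved one farther. Without variance moderation, 2363 of all probe sets passed, 4 member probe sets were lower (3 of them of Gnai1), and 4 pathway genes were higher and 2 lower. With probe sets averaged, 5 pathway genes were lower, and Creb1 turned to 0.0573 (adjusted p = 0.688), as its probe sets disagree. With 1 array left out, 0 to 1 of all 36 member probe sets were higher and 6 to 9 lower, beside 0 and 8 in the main fit. Member counts in this section include the 3 of Gnai1, which are a description without a test. These 3 were lower in every alternative, so they add the same 3 to each lower count and say nothing about its stability. In the fits with 1 array left out, 4307 to 6109 of all probe sets passed, beside 6589 (14.6%) in the main fit. In those fits 7 to 14 pathway genes were higher and 2 to 7 lower. The counts fell by more than 1.5 times without AID+/+ replicate 3 (4307 probe sets, 7 pathway genes higher and 2 lower) and, for lower pathway genes, without AID+/+ replicate 1 (5) or 2 (2). Of 280 recomputed differences of called pathway genes, 60 kept their direction and lost the call. Replicate numbers did not pair the arrays: same-numbered arrays deviated with correlations of -0.05, -0.07 and 0.03, and 1 of 6 arrays correlated best with its own number. The replicate block gave 5369 calls, 8 lower and 0 higher member probe sets, the 3 of Gnai1 among them, and 11 higher and 6 lower pathway genes. Without detection calls, little can be read from the dimmest probe sets.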

Other observations

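The AID-/- arrays were uneven at several receptor genes that the comparison did not call. Gpr174, a lysophosphatidylserine receptor of lymphocytes, was at 4.89, 7.87 and 6.99 on the AID-/- arrays, against 6.86, 7.34 and 7.26 on the AID+/+ arrays. Gpr171 was at 7.76, 9.37 and 8.92 on the AID-/- arrays, against 8.19, 8.08 and 8.18 on the AID+/+ arrays. Replicate 1 held the lowest AID-/- value at both genes, as it did at Lpar6, with 8.42, 9.51 and 9.17 on the AID-/- arrays, against 8.94, 9.20 and 9.13 on the AID+/+ arrays. These genes were singled out after their values were seen, and other uncalled receptors went differently. At F2r and Gpr132 the SD was larger over the AID+/+ arrays (1.05 and 0.78) than over the AID-/- arrays (0.45 and 0.64). At Gpr65 replicate 3 held the lowest AID-/- value, with 6.73, 6.69 and 5.78 on the AID-/- arrays.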
